A study of Ovis aries with 6 samples.

Results

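Low-methylated regions (LMRs) are short stretches in which CpG methylation drops to an intermediate level, and here they are described where they crowd together in sheep perirenal fat. The autosomes were cut into bins of 20 kb from base 1, and each LMR of the authors' lamb and fetal lists was given to the bin of its midpoint. A bin was kept as dense when it held at least 5 LMRs of the lamb list and at least 5 of the fetal list. This gave 1088 dense bins, or 0.887% of the 122616 autosomal bins with a listed CpG. They were set against the 19712 bins with exactly 1 LMR per stage, called single-LMR bins below. The rule used counts of listed regions and no level, but the lists were made from the methylation of these animals. That LMRs are low in methylation is therefore not a result.

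In mammalian tissue most CpGs are methylated, and the exceptions are of a few kinds. Unmethylated regions (UMRs) are mostly CpG-rich promoters, and DNA methylation valleys (DMVs) are long unmethylated domains, often around genes that regulate development. LMRs are CpG-poorer, lie mostly away from promoters and often mark enhancers, where bound transcription factors go with local loss of methylation. Stretches with many enhancers close together are known in many tissues from chromatin marks, which were not measured here.

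DNA came from fat lying around the kidneys (perirenal adipose tissue) of 3 lambs and 3 fetuses, each a separate wild-type pure-bred Merino animal without treatment, from ewes kept on a maintenance diet. The lambs are labelled 89 days after birth (80 days in the series text) and their tissue white adipose, which stores fat. Fetal fat was collected 132 days after conception, with term at 150, and carries the label brown adipose, a tissue that burns fuel for heat. Sample descriptions end in VEH for each lamb and in TV for each fetus, and what they mean is not stated, so their part cannot be told apart from that of stage. Whole tissue holds several cell types, and a change in their shares cannot be told apart from a change of methylation within a cell type. No gene annotation of the build Oar_v3.1 was used here, so bins are named by position, and the tissue labels were not checked against marker genes.

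The assay was whole-genome bisulfite sequencing, which reads a methylated C as C and an unmethylated C as T, and a level is the percentage of reads with C. Summed over CpGs, an animal had between 136938075 and 209550245 reads. On average 5.22 to 8.00 reads covered an autosomal CpG. Only CpGs with 5 or more reads in all 6 animals were used, which left 6163112 of 24936679 autosomal CpGs. In dense bins 142383 of 518427 CpGs were usable, of which 25502 lay in LMRs. The LMR level of a dense-bin animal rests on 191668 to 268786 reads over CpGs. Coverage differed between the bin classes by stage: in dense bins it was 1.04, 1.02 and 0.986 times that in single-LMR bins in lambs 1 to 3, and 1.09, 1.16 and 1.20 times in fetuses 1 to 3. The stages did not overlap in this ratio (exact permutation test, two-sided, p = 0.1, the smallest value that 3 against 3 animals allow). The part of this coverage difference in the stage comparisons below was not tested.

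The dense bins were CpG-rich and lay more often near chromosome ends. A dense bin held a median of 450.5 listed CpGs (quartiles 346 and 578), against 172 in a single-LMR bin (130 and 238) and 162 over all bins. Within 2 Mb of a chromosome end lay 225 dense bins, or 20.7%, against 3.56% of single-LMR bins and 4.26% of all bins. Of the 225, 86 were near the first base of the chromosome and 139 near its last listed CpG. Chromosome 3 held the most dense bins, with 123. As a share of a chromosome's own bins they were most frequent on chromosome 11 (2.99%), chromosome 24 (2.71%) and chromosome 14 (2.30%), and least frequent on chromosome 23 (0.321%). Chromosomes 11, 24 and 14 also had the most CpGs per bin, with 298, 327 and 284. Chromosome 23 had 217, more than chromosome 3 with 207 and chromosome 1 with 171, where dense bins were 1.10% and 0.399% of the bins.

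Dense bins also lay close to each other. They formed 971 runs, of which 77 were pairs of adjacent bins and 15 were runs of at least 3 bins. Another dense bin was found within 100 kb for 537 of them, or 49.4%. No such share is given here for other bins, and a cluster cut by a bin border can count as adjacent bins. The part of CpG number and of chromosome ends in this closeness was not tested. The longest run covered 140 kb on chromosome 11 from 100001 to 240000 and held 47 lamb and 54 fetal LMRs in 7 bins. The next covered 100 kb on chromosome 15 from 20001 to 120000, with 44 lamb and 42 fetal LMRs in 5 bins. Both runs, named after their lengths were seen, lie within 2 Mb of the first base of their chromosomes.

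The LMRs of dense bins were shorter and richer in CpGs than those that stood alone. The lamb list had 6474 LMRs there, with a median width of 394.5 bases, and 19712 in single-LMR bins with a median of 736.5 bases. The fetal list had 6531 in dense bins with a median of 403 bases, against 740 bases in single-LMR bins. The number of CpGs per LMR differed less, with a median of 9 in dense and 7 in single-LMR bins in both lists. CpG density in lamb LMRs was 2.29 per 100 bases in dense and 0.958 in single-LMR bins. The bins as a whole differed in the same direction, with medians of 450.5 and 172 listed CpGs. The density of LMRs was not compared at like CpG number per bin. Together the LMRs covered 2.91 kb of a dense bin in the lamb list and 2.99 kb in the fetal list. The gap between successive LMRs of a dense bin had a median of 1746.5 bases in the lamb list and 1747 bases in the fetal list, and 16.3% and 16.2% of the gaps were under 500 bases. These are features of 1 list per stage and carry no replicate error.

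Most LMRs of dense bins were listed in both stages. Merging the lists gave 7205 LMRs in dense bins outside UMRs and DMVs, of which 5241 (72.7%) came from both lists, 902 (12.5%) from the lamb list alone and 1062 (14.7%) from the fetal list alone. In single-LMR bins 81.7% came from both lists. The rule asks for LMRs of both stages in either class, so sharing in part follows from it. In 235 dense bins every merged LMR was in both lists, and in 69 fewer were shared than not. Lamb LMRs outnumbered fetal ones in 292 dense bins, fetal ones outnumbered lamb ones in 328, and the counts were equal in 468.

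UMRs were frequent among the crowded LMRs, but DMVs were not. A UMR had its midpoint in 486 dense bins (44.7%), against 13.7% of single-LMR bins and 15.04% of all bins. A DMV overlapped 7 dense bins (0.643%), against 0.548% of single-LMR bins and 0.561% of all bins. The authors' lists of differentially methylated regions (DMRs), which were called on these animals, placed 28 of 526 hyper and 25 of 496 hypo DMRs in dense bins, or 5.32% and 5.04%. Dense bins hold 2.08% of the listed CpGs. At least 1 DMR lay in 47 dense bins (4.32%), against 0.588% of single-LMR bins and 0.800% of all bins. Hyper was read as higher in lambs, which the list names do not state.

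LMRs in dense bins were methylated at a higher level than LMRs that stood alone, in each of the 6 animals. In dense bins their level was 34.7%, 35.0% and 33.5% in lambs 1 to 3 and 33.0%, 34.2% and 32.1% in fetuses 1 to 3. In single-LMR bins it was 30.9%, 31.9% and 30.6% in lambs and 29.6%, 29.96% and 29.0% in fetuses. The classes did not overlap: the lowest dense value exceeded the highest single-LMR value. The difference within an animal averaged 3.44 ± 0.494 percentage points (SD, n = 6) and ran from 2.90 to 4.23 points (exact sign-flip permutation test over animals, two-sided, p = 0.03125, the smallest value that 6 animals allow). Over LMRs listed in both stages it was 3.01 points (same exact test, p = 0.03125). The size depended on the bins compared: against all 30794 bins whose lower count of the 2 stages is 1, a comparison added after the data were seen, it was 0.591 points in all LMRs and 2.06 points in LMRs listed in both stages, positive in 6 of 6 animals. With a minimum of 10 reads per CpG, which left 221 CpGs in LMRs of dense bins, the difference from single-LMR bins was 15.6 points in LMRs and -8.48 points in background. In all, 6 such class comparisons were made, each at the smallest p of the exact sign-flip test. Adjustment over them (Benjamini-Hochberg) therefore had to leave each at 0.03125 and adds no support.

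The higher level was clearest in the shortest LMRs. LMRs under 300 bases were at 39.8% in 2315 regions of dense bins and 32.7% in 1569 regions of single-LMR bins (means of 6 animals), a difference of 7.09 points. Between 300 and 600 bases the difference was 3.78 points and between 600 and 1200 bases 2.19 points, positive in all 6 animals in each of these widths. At 1200 bases or more it was 0.727 points and positive in 5 of 6 animals. The gradient over widths was described and not tested.

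UMRs showed a larger contrast. Outside DMVs, UMRs listed in both stages numbered 475 in dense bins and 2973 in single-LMR bins. In dense bins they were at 20.5%, 20.4% and 19.1% in lambs 1 to 3 and 18.9%, 19.7% and 18.0% in fetuses 1 to 3, against 9.72%, 9.96% and 9.74% in lambs and 9.93%, 9.46% and 9.58% in fetuses in single-LMR bins. Every animal was higher in dense bins, by 9.70 points on average and by 8.40 to 10.8 points in single animals (exact sign-flip permutation test, two-sided, p = 0.03125, n = 6). UMRs of either list in dense bins were narrower, with a median of 1391 bases against 1935, and had the same CpG density of 3.48 per 100 bases. The level was still higher in dense bins when UMRs of like width were compared, by 4.41 points between 500 and 1000 bases (96 against 259 UMRs), 10.7 points between 1000 and 2000 bases and 8.80 points at 2000 bases or more, in all 6 animals each time. Of the UMRs of dense bins 68.9% were in both UMR lists, against 96.1% in single-LMR bins. A region that is a UMR in 1 stage and an LMR in the other adds an LMR to 1 list alone. The rule of exactly 1 LMR per stage tends to leave out bins with such regions. This contrast in list sharing therefore follows in part from the rule. The comparison of UMRs was chosen after the data were seen.

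**Figure D1:**
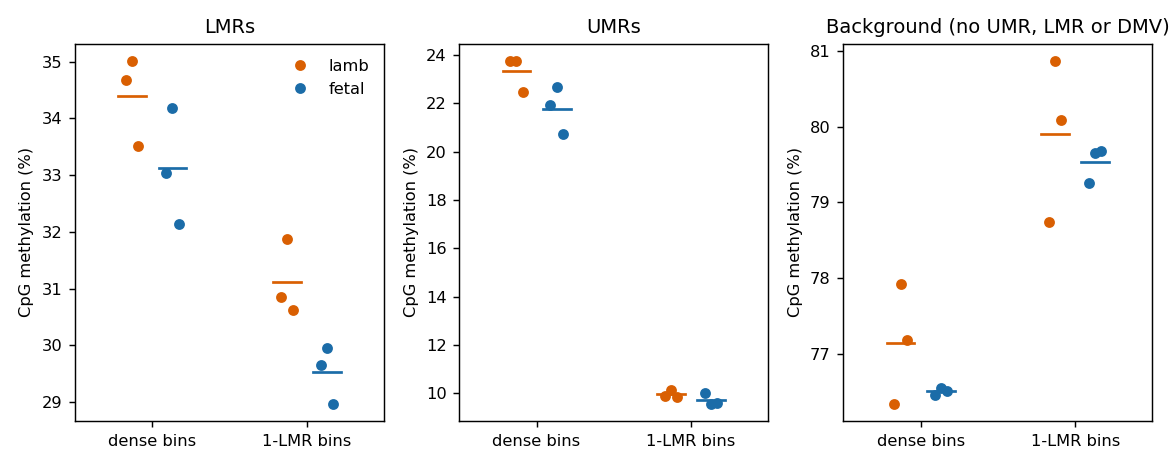
CpG methylation (%) in LMRs, in UMRs of either list and in background CpGs, in dense bins (left of each panel) and bins of 1 LMR per stage (right). Each point is an animal, lambs in orange and fetuses in blue, with the stage mean as a bar; the axes do not start at 0. LMRs and UMRs are higher and the background is lower in dense bins in all 6 animals, while the stages overlap in each dense group.

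Between the listed regions the order was reversed, with a lower background in dense bins. Background CpGs, those outside every UMR, LMR and DMV of either stage, were at 76.3%, 77.9% and 77.2% in lambs 1 to 3 and 76.5%, 76.6% and 76.5% in fetuses 1 to 3 in dense bins. In single-LMR bins the background was at 78.7%, 80.9% and 80.1% in lambs and 79.3%, 79.7% and 79.7% in fetuses. It was lower in dense bins in 6 of 6 animals, by 2.40 to 3.16 points (mean -2.89 ± 0.272, SD; exact sign-flip permutation test, two-sided, p = 0.03125, n = 6). Whole bins, listed regions included, differed by -6.36 points (same exact test, p = 0.03125). By the rule dense bins hold more LMRs, which cover 2.91 kb per bin in the lamb list against 0.95 kb in single-LMR bins. The lower whole-bin level therefore follows in part from the rule, and its p value adds no support. The background was higher with distance from a dense bin. In bins 20 kb before and after a dense bin the background averaged 78.5% and 78.8% over animals, at 100 kb it was near 80.0% and 79.9%, and at 200 kb 80.2% and 80.4%. Around single-LMR bins it stayed between 79.6% and 79.7% at these distances. The bins compared were unlike in CpG number. At 200 kb before and after, the median was 362 and 357 CpGs around dense bins, against 166.5 and 167 around single-LMR bins. How far the lower background reaches at like CpG number was not tested.

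Nearness to a listed region moved with this difference. Of the background CpGs of dense bins 24.7% lay within 250 bases of a UMR or LMR, against 4.61% in single-LMR bins, and in both classes those CpGs were low, at 69.7% and 71.1%. At equal distance the difference, dense minus single-LMR bins, was -1.80 points between 250 and 500 bases and -1.05 points between 500 and 1000 bases, negative in 6 of 6 animals. Between 1000 and 2000 bases it was -0.161 points, and between 2000 and 4000 bases 0.0986 points, with both signs among the animals. Over all background CpGs more than 1 kb from a listed region, a comparison added after the data were seen, it was -0.0365 points (exact sign-flip permutation test, two-sided, p = 0.656, n = 6).

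**Figure D2:**
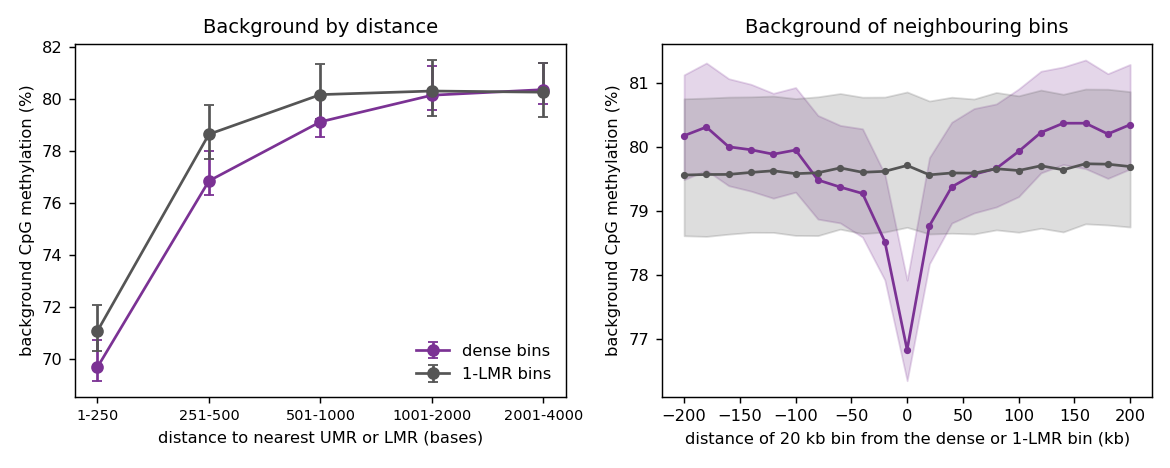
Background CpG methylation (%) by distance to the nearest UMR or LMR (left, bases) and in 20 kb bins up to 200 kb away (right), for dense bins in purple and bins of 1 LMR per stage in grey. Points are means of 6 animals, and bars or bands run from the lowest to the highest animal. The classes meet beyond 1 kb, and the background of dense bins is lowest in the bin itself, at 76.8% on average.

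CpG number also moved with the background, in the other direction. Among single-LMR bins the background was higher in bins with more CpGs, at 80.1% with 200 to under 300 CpGs per bin, 82.4% with 400 to under 500 and 84.2% in the highest class, from 600. Among dense bins it was 74.8%, 76.4% and 78.8% in the same classes. At like CpG number the difference, dense minus single-LMR bins, was -6.56 to -5.31 points in 5 classes, negative in 6 of 6 animals each time, against -2.89 points without regard to CpG number. Restricted to CpGs more than 1 kb from a listed region, the difference at like CpG number was -4.19 to -3.11 points, again negative in 6 of 6 animals in each class. The LMR level, in turn, was higher in dense bins in each of the 5 classes, by 1.60 to 4.17 points and in 6 of 6 animals.

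**Figure D3:**
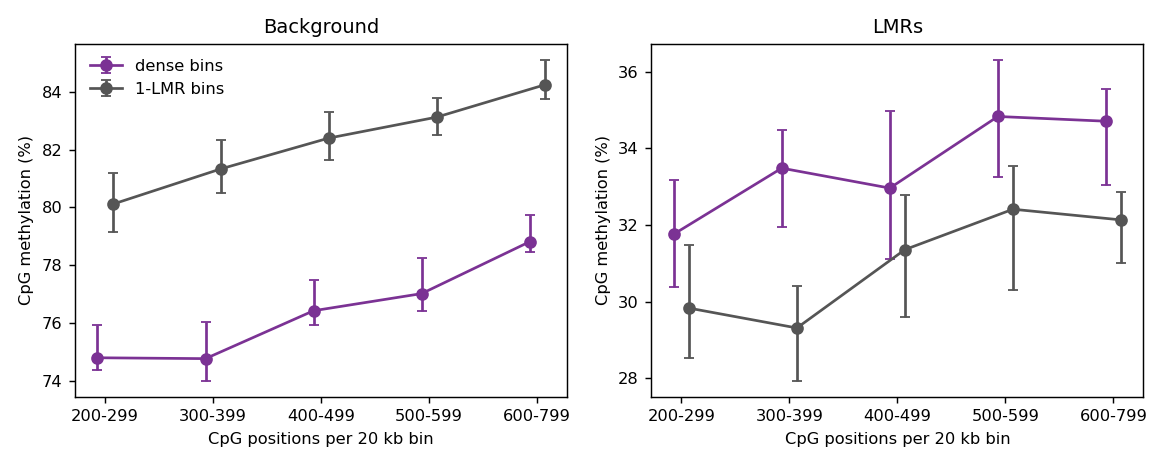
CpG methylation (%) of the background (left) and of LMRs (right) in bins grouped by their number of listed CpG positions, dense bins in purple and bins of 1 LMR per stage in grey. Points are means of 6 animals with bars from the lowest to the highest animal. In every class the background is lower and the LMR level higher in dense bins.

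From a lower count of 1 to 7 or more the background was lower at each step but that between 5 and 6, while the LMR level had no such order. With the lower of the 2 stage counts at 1, 2, 3 and 4, the background averaged 79.4%, 79.0%, 78.8% and 78.1%, and at 5, 6 and 7 or more it was 77.0%, 77.2% and 75.2%. The LMR level at the same counts averaged 33.2%, 32.8%, 32.4%, 32.6%, 33.8%, 33.0% and 34.8%. Bins with a lower count of 1 include those with more LMRs in the other stage. Just inside the limit, 703 bins with a lower count of 5 had a background of 76.5% to 78.2% over animals and LMRs at 32.5% to 35.2%. Just outside it, 1827 bins with a lower count of 4 had 77.5% to 79.2% and 30.9% to 33.9%. The ranges over animals thus overlap in both measures, but the same animals were measured on both sides. Within every animal the background was lower and the LMR level higher at a lower count of 5 than at 4. In lamb 1, for example, the background was at 76.5% against 77.5% and the LMRs at 34.6% against 33.3%. This step was not tested.

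The LMRs of 1 bin differed widely among themselves. Of the LMRs of dense bins 3828 had at least 3 usable CpGs. Their levels had a median of 35.4% with quartiles of 26.5% and 42.4%, against 32.1%, 22.0% and 40.2% in single-LMR bins. Under 20% lay 13.7% of them, against 21.3%. In the 530 dense bins with at least 4 such LMRs, the lowest had a median of 21.7% and the highest of 46.8%, and the range within a bin had a median of 23.9 points. Successive LMRs of a dense bin up to 1 kb apart had levels correlated across pairs at r = 0.131 (640 pairs), and pairs 3 to 20 kb apart at r = -0.000806 (1214 pairs). Such pairs share animals, libraries and surroundings, and so weak a correlation is no more than a description.

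Between the stages, dense bins as a class overlapped in every measure. Their LMRs averaged 34.4% ± 0.784 in lambs and 33.1% ± 1.03 in fetuses (SD, n = 3 each), a difference of 1.28 points (exact permutation test, two-sided, p = 0.2). The background averaged 77.1% ± 0.788 in lambs and 76.5% ± 0.0498 in fetuses (exact permutation p = 0.4), and the whole bins 65.8% ± 0.722 in lambs and 65.0% ± 0.319 in fetuses (exact permutation p = 0.2). UMRs listed in both stages averaged 19.99% ± 0.813 in lambs and 18.9% ± 0.876 in fetuses (exact permutation p = 0.2). Over 6 such comparisons the adjusted p values were 0.24 to 0.4, and 3 animals against 3 cannot go below 0.1. LMRs of single-LMR bins averaged 31.1% ± 0.670 in lambs and 29.5% ± 0.505 in fetuses without overlap (exact permutation p = 0.1). The stage difference itself did not differ detectably between the classes, at -0.308 points for dense minus single-LMR bins in LMRs (exact permutation p = 0.5) and 0.271 points in background (exact permutation p = 0.3), or 0.0963 points without lamb 1. Without fetus 3 the difference in LMRs of dense bins was 0.794 points, and that in background was 0.255 points without lamb 2 and 1.04 points without lamb 1. For whole bins it was 0.372 points without lamb 2.

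Of the single LMRs in dense bins, 1 was called different between the stages. Calling asked for 10 points or more between stage means and p under 0.05 after adjustment, in a quasi-binomial test moderated by limma over all 78994 UMRs and LMRs tested. By this rule 0.0038% of all tested regions were called, 0.00253% higher and 0.00127% lower in lambs, and 1 of 3828 is too few to set against those shares. An unadjusted p under 0.05 was reached by 453 LMRs of dense bins, or 11.8%, where 11.3% of all regions reached it. Of LMRs of dense bins 7.11% reached it with lambs higher (7.15% of all regions) and 4.73% with lambs lower (4.1% of all regions). Levels of the stages did not overlap in 383 with lambs higher (10.0%, against 9.8% of all regions) and in 256 with lambs lower (6.69%, against 6.15%). These shares are near those of all regions, and 11.8% of all LMRs reached an unadjusted p under 0.05. Of LMRs of single-LMR bins fewer did, 9.11%, with 6.07% higher and 3.04% lower in lambs. Over LMRs listed in both stages the share was 10.1% in dense and 8.15% in single-LMR bins. The difference between these shares was not tested.

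The called LMR lies on chromosome 7 from 99045977 to 99046242 and is in the fetal list alone. It was at 79.1%, 80.6% and 80.4% in lambs 1 to 3 and 23.9%, 26.7% and 20.4% in fetuses 1 to 3, over 5 CpGs. Every lamb was more than 50 points above every fetus. The difference was 56.3 points (lambs 80.0% ± 0.807, fetuses 23.7% ± 3.16, SD, n = 3 each; adjusted p = 0.0236, limma-moderated quasi-binomial test), and its listing for fetuses alone already reflects it. Without any of the 6 animals it stayed between 54.7 and 57.9 points, but the adjusted p then ran from 0.0847 to 0.205. The bin around it, from 99040001 to 99060000, holds 7 lamb and 8 fetal LMRs, and the differences of the other 6 tested LMRs ran from -7.49 to 21.9 points with 4 of them higher in lambs.

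The next LMRs by p, named for the smallest p without overlap between stages, did not pass. The LMR on chromosome 3 from 221005361 to 221005944, in both lists and in a hyper DMR, was at 66.7%, 69.7% and 56.1% in lambs and 21.9%, 31.8% and 31.8% in fetuses (35.7 points, adjusted p = 0.110 in the same test). On chromosome 17, 2 neighbouring LMRs of the bin from 71700001 to 71720000 went opposite ways. The first, from 71706046 to 71706490 and in both lists, was at 56.7%, 57.1% and 47.1% in lambs and 21.3%, 13.6% and 18.8% in fetuses (35.7 points, adjusted p = 0.113). The other, from 71707240 to 71707623 and in the lamb list alone, was at 17.1%, 14.9% and 28.6% in lambs and 49.5%, 34.6% and 51.4% in fetuses (-25.0 points, adjusted p = 0.188). Lower in lambs without overlap was also the LMR on chromosome 19 from 11790638 to 11790778, in the lamb list alone. It was at 31.5% ± 11.6 in lambs and 63.8% ± 7.43 in fetuses (SD, n = 3 each). The same held for the LMR on chromosome 9 from 20891005 to 20891468, in both lists. That LMR was at 15.6% ± 10.7 in lambs and 47.2% ± 6.91 in fetuses (SD, n = 3 each). By the quasi-binomial test moderated with limma, adjusted p was 0.224 on chromosome 19 and 0.229 on chromosome 9. For the LMRs in the lamb list alone, on chromosomes 17 and 19, the listing already reflects the lower level in lambs.

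The stage differences of neighbouring LMRs are given next as counts. In the 530 dense bins with at least 4 tested LMRs, each LMR was higher in lambs in 64, each was lower in 10, and the directions were mixed in 456. Animals of a stage spread by a median SD of 7.99 points in these tests, against a median size of the stage difference of 6.14 points, so mixed directions carry little weight. Stage differences of successive LMRs up to 1 kb apart correlated at r = 0.151 across 640 pairs. The value was 0.000316 across 898 pairs 1 to 3 kb apart and 0.0782 across 1214 pairs 3 to 20 kb apart. It thus did not fall steadily with distance. Over all LMRs of the genome the value up to 1 kb was 0.0895 (2902 pairs). These are descriptions across sites that share animals and libraries.

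As whole bins, 3 of the 1086 dense bins tested were called, 1 higher and 2 lower in lambs, with 5 points or more and adjusted p under 0.05 in the same kind of test over 112033 autosomal bins. Of all bins 0.0214% were called, 24 in number, with 0.0116% higher and 0.00982% lower in lambs. With limma on log2 ratios, which does not weight by reads, none of the 3 was called and 19 dense bins reached an unadjusted p under 0.05. An unadjusted p under 0.05 was reached by 169 dense bins (15.6%, against 6.5% of all bins), by 127 with lambs higher (11.7%, against 4.36% of all bins) and by 42 with lambs lower (3.87%, against 2.14%). Levels of the stages did not overlap in 134 dense bins with lambs higher (12.3%, against 7.6% of all bins) and in 42 with lambs lower (3.87%, against 3.85%). Dense bins carry more reads, with a median of 1078 per animal against 366 over all bins, and their animals spread less, with a median SD within a stage of 1.88 points against 2.61. Among bins with 100 to under 150 usable CpGs the shares at an unadjusted p under 0.05 were 15.7% of 523 dense and 9.91% of 1585 single-LMR bins, and with 150 or more 19.8% of 318 and 13.95% of 387. The part of depth in these shares was otherwise not tested. The median difference between stages was 0.803 points in dense bins and 0.535 points in all bins.

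The bin on chromosome 21 from 42400001 to 42420000 was lower in lambs. It was at 32.6%, 32.3% and 30.6% in lambs 1 to 3 and 44.6%, 40.5% and 40.2% in fetuses 1 to 3. The stages were far apart relative to their spread, by -9.88 points (lambs 31.8% ± 1.12, fetuses 41.7% ± 2.45, SD, n = 3 each; adjusted p = 0.000886, limma-moderated quasi-binomial test). It was called without any single animal as well, at -10.7 to -8.47 points, but not with limma on log2 ratios. Of its 7 tested UMRs and LMRs 6 were lower in lambs. The UMR from 42400831 to 42401839 was at 22.9%, 11.1% and 21.2% in lambs and 51.0%, 56.4% and 39.5% in fetuses, while the longest region, a UMR from 42410435 to 42420450, was at 6.61% ± 0.846 in lambs and 8.58% ± 3.39 in fetuses (SD, n = 3 each). None of the 7 was called alone, the smallest adjusted p being 0.188.

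On chromosome 19 the bin from 59580001 to 59600000 was also lower in lambs, at 66.3%, 65.9% and 69.7% in lambs 1 to 3 and 71.2%, 73.5% and 76.2% in fetuses 1 to 3 (-6.33 points, adjusted p = 0.0308). It holds 10 lamb and 7 fetal LMRs and a hypo DMR, and lies 0.864 Mb from the end of the chromosome. Its background was lower in lambs as well, at 77.4% ± 1.01 against 82.9% ± 1.32 in fetuses (SD, n = 3 each). The bin on chromosome 10 from 84280001 to 84300000 was higher in lambs, at 50.2%, 50.2% and 46.5% in lambs 1 to 3 and 42.0%, 44.9% and 40.9% in fetuses 1 to 3 (6.36 points, adjusted p = 0.0308, limma-moderated quasi-binomial test). Of its 7 tested UMRs and LMRs 6 were higher in lambs. These 2 bins were called in only 2 of the 6 fits that leave out an animal: the chromosome 19 bin without lamb 3 or fetus 1 (adjusted p up to 0.370 without the others), and the chromosome 10 bin without lamb 3 or fetus 2 (up to 0.309 without the others).

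**Figure D4:**
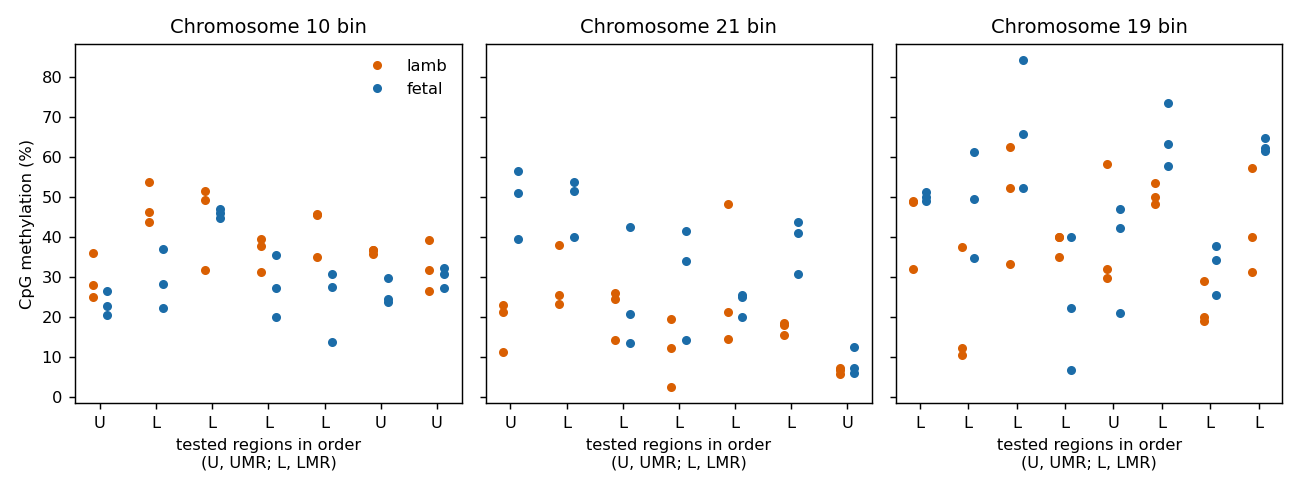
CpG methylation (%) of each tested UMR (U) and LMR (L), in the order along the chromosome, in the 3 dense bins called between stages. Points are animals, lambs in orange and fetuses in blue. In the chromosome 21 bin 6 of 7 regions have the lower mean in lambs, in the chromosome 19 bin 6 of 8, and in the chromosome 10 bin 1 of 7.

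The 12 densest bins, taken by the sum of lamb and fetal LMRs, held 19 to 23 of them. The last 3 were taken by position from 7 bins tied at 19. Of the 12 bins 6 lay within 2 Mb of a chromosome end, 7 had no UMR, and none held a DMR or was called. Adjusted p ran from 0.298 to 0.974 in the limma-moderated quasi-binomial test, and limma's own test called 0 of all dense bins. In the quasi-binomial test 5 of the 12 reached an unadjusted p under 0.05. The share was 15.6% of tested dense bins and 6.5% of all bins, and 12 bins are too few to set against it. The 3 with the most LMRs had a background well below that of other dense bins. On chromosome 15 from 40001 to 60000, with 12 lamb and 11 fetal LMRs, the background was at 61.6%, 64.5% and 62.6% in lambs and 61.2%, 52.8% and 52.9% in fetuses. Every lamb was above every fetus there. LMRs of that bin covered 11.3 kb in the lamb and 10.9 kb in the fetal list.

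Next came the bin on chromosome 20 from 60001 to 80000, with 11 lamb and 12 fetal LMRs, and the bin on chromosome 15 from 80001 to 100000, with 10 lamb and 12 fetal LMRs. On chromosome 20 the background was at 61.7%, 65.4% and 65.0% in lambs and 62.3%, 61.4% and 58.9% in fetuses, and its LMRs were at 38.4% ± 2.25 in lambs and 34.3% ± 1.25 in fetuses (SD, n = 3 each). In the chromosome 15 bin the background was at 61.6%, 67.1% and 64.8% in lambs and 62.5%, 62.1% and 57.0% in fetuses, with LMRs at 40.3% ± 1.81 in lambs and 34.5% ± 2.35 in fetuses (SD, n = 3 each). For comparison, the median dense bin had a background of 77.3%, and 11 of 1086 were under 60%. These 3 bins all lie within 100 kb of the first base of their chromosomes.

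The other 9 had backgrounds in the usual range, with stage means of 71.9% to 81.7%. They comprise the bins on chromosome 2 from 248100001, chromosome 3 from 2780001, chromosome 4 from 118080001 and from 118300001, chromosome 11 from 53580001, chromosome 14 from 7480001, chromosome 17 from 64900001, chromosome 9 from 15940001 and chromosome 13 from 55820001, each 20 kb long. On chromosome 17 the LMRs stood at 37.0%, 43.8% and 42.9% in lambs and 31.9%, 29.2% and 33.3% in fetuses, and the whole bin at 68.6%, 68.6% and 68.4% in lambs and 64.6%, 64.0% and 63.0% in fetuses. On chromosome 3 the LMRs went the other way, at 35.9%, 35.6% and 33.6% in lambs and 40.7%, 46.0% and 39.9% in fetuses. The LMR levels of the stages do not overlap in either bin. As whole bins neither passed in the quasi-binomial test (adjusted p = 0.298 and 0.947), which does not test the LMRs apart. On chromosome 3 the whole bin went against its LMRs, at 66.4% in lambs and 64.9% in fetuses with overlap. The LMR level of that bin rests on 20 usable CpGs. Across the 12 bins the whole-bin level did not overlap between stages in 3 with lambs higher and 1 with lambs lower. The shares were 12.3% and 3.87% of all tested dense bins, and 7.6% and 3.85% of all bins. A set of 12 bins is too small to set against those shares.

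**Figure D5:**
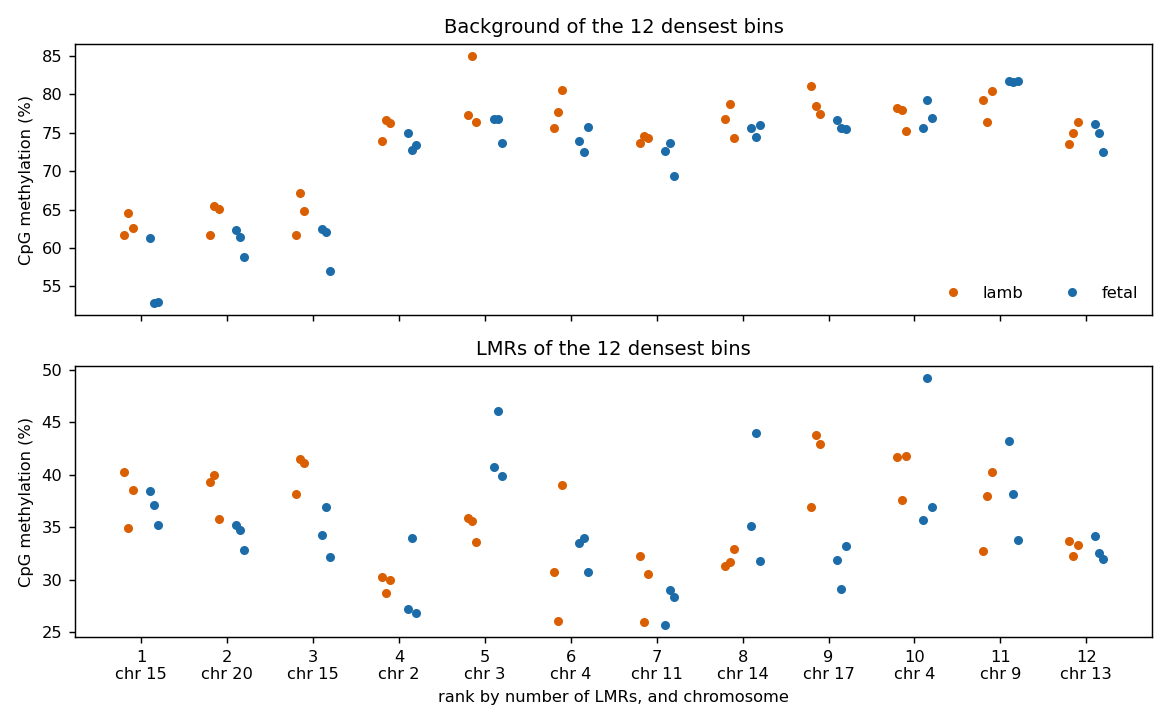
CpG methylation (%) of background (top) and LMRs (bottom) in the 12 bins with the most LMRs, ranked by LMR number, with the chromosome below each rank. Points are animals, lambs in orange and fetuses in blue. The first 3 bins have backgrounds of 52.8% to 67.1% over all animals, and their LMRs lie in the same range as those of the other 9.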

How the data were processed

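Positions are on Oar_v3.1, per the series' design text. BWA, Picard, Oar_v3.1 and hg19 are named without a role in the submitters' processing notes; the sources used here do not give the methylation and region callers. The deposited table holds raw counts of methylated and covering reads per CpG and animal, and the deposited lists hold positions alone. A level is summed methylated over summed covering reads. Overlapping UMRs and LMRs of both lists were merged; a merged region without UMR or DMV counts as LMR. Classes were compared by exact permutation over animals. Regions (at least 3 usable CpGs) and bins (at least 10) were tested by quasi-binomial logistic models, lamb against fetal, with the dispersion moderated by limma's squeezeVar and not below 1, and Benjamini-Hochberg adjustment over all autosomal regions or bins. The test was tried on simulated reads, and its shares of found and of false calls are not given here. Named are the 12 bins with most LMRs, called bins, called LMRs, and LMRs of smallest p without overlap to fill 3 per direction. Members, lists and tests were chosen with earlier results of these data known; gene lists were not used, as no annotation of Oar_v3.1 was used here. Python 3.11.15, numpy 2.4.6, scipy 1.17.1, pandas 2.3.3, R 4.3.3 and limma 3.58.1 were used.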

Additional observations from a re-analysis of the deposited data

Results flagged for a closer look

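The X chromosome, which no comparison uses, also held dense bins. Of its 6771 bins of 20 kb with a listed CpG, 10 had at least 5 LMRs in each stage, or 0.148%, against 0.887% of autosomal bins, and 1069 had 1 LMR per stage. It is listed here as data outside the comparisons, and the difference in shares was not tested.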

How the results depend on the processing

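LMRs of both lists, bins without UMR or DMV, bins 2 Mb from chromosome ends, background beyond 1 kb and all bins with a lower count of 1 were chosen after seeing the data. With a minimum of 10 reads only 866 CpGs of dense bins remained, and the stage difference in their LMRs was -0.497 points, the whole-bin difference between dense and single-LMR bins 6.01 points (main value -6.36), that in LMRs 15.6 and in background -8.48 points, and called LMRs and bins 0 and 0 (of 24 and 11 tested; 2 and 1 at an unadjusted p under 0.05). The background difference between the classes was -0.0365 points beyond 1 kb. The stage difference in LMRs, dense minus single-LMR, was 0.141 points with equal weight per CpG and 0.0775 without CpGs of high coverage. Called LMRs numbered 2 with at least 4 LMRs per stage, 0 with limma (409 at an unadjusted p under 0.05) and 0 with the replicate block (353). Called bins numbered 1 with at least 6 LMRs per stage, 0 with limma, which does not weight by reads (19 unadjusted), and 4 with the replicate block. Without 1 animal the class differences ran from 3.28 to 3.55 points in LMRs, -2.98 to -2.83 in background and -6.49 to -6.26 in whole bins, with exact p = 0.0625, the smallest that 5 animals allow. The stage difference, dense minus single-LMR, then ran from -0.576 to 0.00760 points in LMRs and from 0.0963 to 0.382 in background, called LMRs from 0 to 0 and called bins from 1 (without lamb 1, lamb 2 or fetus 3) to 4 (without lamb 3 or fetus 2). Paired by replicate number, the LMR stage difference, 1.28 points by construction, had exact p = 0.25, the smallest that 3 pairs allow. Same-numbered animals' deviations correlated by -0.00542 to 0.0378 over LMRs and 0.0435 to 0.0540 over bins. Over bins, same-numbered animals had the highest correlation in every case, which comes from the data and not the design. Over LMRs this held for number 1 alone. There lamb 2 correlated most with fetus 3 (0.0157) and lamb 3 with fetus 2 (0.0145). Such weak correlations do not settle whether the number pairs the animals. Except where said, the cause was not tested.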
